A study of Mus musculus with 4 samples.

Results

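Open chromatin was examined in 3T3-L1 cells at 38 mouse genes of the fibroblast growth factor (FGF) system and of hepatocyte growth factor (HGF). They were set beside the 21911 protein-coding genes on chromosomes 1-19, X and Y. The 38 genes were chosen by symbol from GENCODE M21 (assembly mm10). They fall into 18 secreted FGF ligands, 4 intracellular FGF-like factors, 5 FGF receptors, 9 feedback inhibitors and the pair of Hgf and its receptor Met. All 38 symbols were found, 37 of them on the chromosomes and Spry3 on an unlocalised scaffold of the X chromosome. 3T3-L1 is an immortalized line of mouse embryonic fibroblasts, labelled as strain C57BL/6J, that can be turned into fat cells and is therefore also called a preadipocyte line. No treatment, age or stage of differentiation is named. The assay was DNase-seq, which sequences the ends left where the nuclease DNase I reaches and cuts the DNA, in 4 libraries of 2 biosamples, each with 2 technical libraries pooled into 1 list of peaks and 1 list of hotspots.

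FGFs are secreted proteins that bind receptor tyrosine kinases together with heparan sulfate or, for the endocrine members, a Klotho protein. The activated receptor signals through RAS and ERK, and ERK activity switches on its own brakes: the Sprouty (Spry) and Spred proteins, which restrain signalling through RAS, and the phosphatases Dusp4 and Dusp6, which inactivate ERK. HGF, secreted by mesenchymal cells, acts on neighbouring cells through the receptor Met, which feeds the same cascade. In fat tissue FGFs are known for effects on preadipocyte growth and differentiation.

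Peaks were windows of 150 bp, 298793 in biosample 1 and 97430 in biosample 2. Each carried a score set by the authors, with a median of 65 in biosample 1 and 33 in biosample 2, so a score is given below with its percentile within its own list and scores are not compared between lists. Hotspots, regions of enriched cleavage of varying width, numbered 247031 and 88636. Read depth was unknown, so a gene without a peak was not called open at the depth of that list and was not shown to be closed. With 1 list per biosample there was no spread between samples and no test, and nothing in the labels tells if the 2 biosamples came from separate cultures. Of the fibroblast markers listed to check the line, 8 of 8 had a promoter peak in both lists, of the mature adipocyte markers 1 of 6, of the endothelial markers 2 of 4, and of the epithelial and of the blood cell markers 0 of 4 each. A further 2 adipocyte markers, Fabp4 (percentile 68.5) and Lep (percentile 21.1), had a promoter peak in biosample 1 only.

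A promoter counted as open if any peak fell within 1 kb of a start site of a protein-coding transcript. By that rule 18 of the 38 members (47.4%) were open in both lists, 8 only in that of biosample 1 and 12 in neither; none was open only in biosample 2. Over all protein-coding genes 51.9% were open in both lists, 62.6% in that of biosample 1 and 52.0% in that of biosample 2, so the members as a whole were close to the background. The classes differed in their counts. Open in both lists were 7 of the 9 feedback inhibitors, 3 of the 5 receptors and both HGF genes, but 6 of the 18 secreted ligands and 0 of the 4 intracellular factors.

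The promoter peaks that ranked highest in both lists, 1 for each class that had a peak in both, are printed to show the DNA that was open. They are given on the plus strand of GRCm38.p6, in lower case, with any match to the motifs searched in capitals. Bases that the annotation calls untranslated were left out, which shortened the window at Dusp6 to 115 bases and that at Hgf to 50 bases. The Fgf7 window lay upstream of the start site, in an intron of the overlapping gene Fam227b. The Fgfrl1 window lay within the gene, just upstream of its 3 downstream start sites, and held 15 CpG dinucleotides and 2 matches to the SP/KLF motif GGGCGG.
Fgf7, chr2:126034456-126034605: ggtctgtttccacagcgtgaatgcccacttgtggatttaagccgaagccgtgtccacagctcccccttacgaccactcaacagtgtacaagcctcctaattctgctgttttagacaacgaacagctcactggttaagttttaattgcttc
Fgfrl1, chr5:108694036-108694185: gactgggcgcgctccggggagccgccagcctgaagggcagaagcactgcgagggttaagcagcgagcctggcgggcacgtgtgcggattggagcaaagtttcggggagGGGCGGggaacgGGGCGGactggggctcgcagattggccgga
Dusp6, chr10:99263116-99263230: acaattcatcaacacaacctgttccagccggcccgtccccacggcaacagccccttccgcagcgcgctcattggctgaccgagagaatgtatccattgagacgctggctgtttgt
Hgf, chr5:16553736-16553785: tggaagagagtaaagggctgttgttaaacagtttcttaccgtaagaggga

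**Figure D1:**
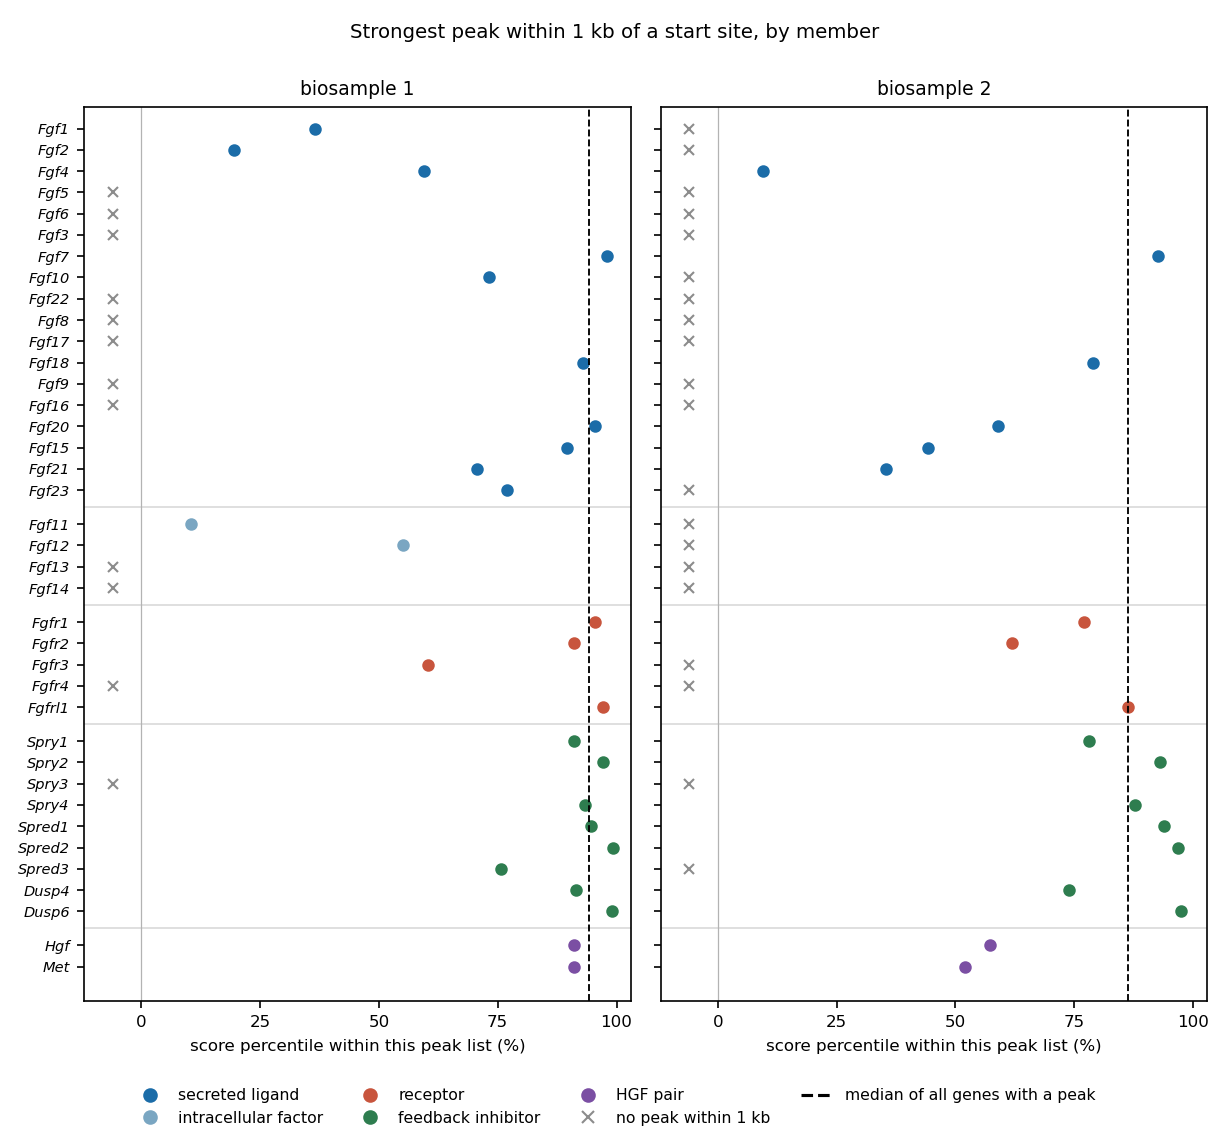
Score percentile (x axis, %) of the strongest peak within 1 kb of a start site for each of the 38 members, in biosample 1 (left) and biosample 2 (right). Points are coloured by class, crosses mark members with no such peak, and the dashed line is the median of all protein-coding genes with a promoter peak (94.2% and 86.4%). In both panels Fgf7, Spry2, Spred1, Spred2 and Dusp6 lie above the line. Spry3, Fgfr4, Fgf13, Fgf14 and 8 of the 18 secreted ligands have no peak in either.

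Among the secreted ligands Fgf7, keratinocyte growth factor, which mesenchymal cells make for epithelia (chr2:126034658-126091185, plus strand), had the strongest promoter. Its best promoter peak had a score of 142 in biosample 1 (percentile 97.9) and 74 in biosample 2 (percentile 92.6), and lay at the same position, 128 bp upstream of the start site. Each list had 4 peaks at this promoter. Fgf18, which acts in bone and cartilage growth, had a top score of 130 in biosample 1 (percentile 92.9) and 54 in biosample 2 (percentile 79.0). Fgf20, known from hair follicle and inner ear development, scored 136 (percentile 95.5) and 38 (percentile 58.9) in biosample 1 and biosample 2, but its open start site had a start site of the neighbouring gene Micu3 within 1 kb, so the peak cannot be assigned to one of them.

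The endocrine ligands Fgf15 and Fgf21 were also open in both lists, at lower ranks. Fgf15, the intestinal hormone that lowers bile acid synthesis, had 1 peak in each list, with a score of 123 (percentile 89.6) in biosample 1 and 30 (percentile 44.2) in biosample 2. Fgf21, a hormone of liver and fat, scored 90 (percentile 70.6) in biosample 1 and 26 (percentile 35.4) in biosample 2. In both lists the edge of this peak was 886 bp from the start site. The biosample 1 peak at the Fgf21 start site itself scored 54 (percentile 36.6). Fgf4, a ligand of the early embryo, scored 75 (percentile 59.5) and 15 (percentile 9.41) in biosample 1 and biosample 2, with its edge 942 bp away. With a window of 500 bp Fgf4 and Fgf21 were no longer open in both lists, and with the stronger 50% of each list neither they nor Fgf15 were.

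A further 4 ligands had a promoter peak in biosample 1 alone. Fgf10, a mesenchymal ligand known to be made by preadipocytes, had 5 peaks, with scores between 40 and 94 (highest percentile 73.2), and no peak in biosample 2 nearer than 77657 bp. Fgf23, the phosphate hormone of bone, had 1 peak with a score of 100. Fgf1, whose loss in mice disturbs the remodelling of fat tissue, had 3 peaks with a top score of 54 (percentile 36.6); in biosample 2 its nearest peak was 1024 bp away, just outside the window. Fgf2, the classical fibroblast mitogen, had 1 peak with a score of 43 (percentile 19.5), 961 bp from a downstream start site, and none at its 3 upstream start sites. The remaining 8 ligands, Fgf3, Fgf5, Fgf6, Fgf8, Fgf9, Fgf16, Fgf17 and Fgf22, had no promoter peak in either list. In biosample 1 the median top percentile was 75.1 for the 10 ligands with a peak, against 94.2 for all genes with one; in biosample 2 it was 51.6 for 6 ligands, against 86.4.

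The 4 intracellular factors are not secreted and are known as partners of sodium channels in excitable cells. Fgf12 had a peak with a score of 70 and Fgf11 one with a score of 37 (percentile 10.4), both in biosample 1 only. Fgf13 and Fgf14 had none in either list, and the nearest peak to a Fgf13 start site in biosample 2 was 653565 bp away.

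Of the receptors Fgfr1, the main FGF receptor of mesenchymal cells (chr8:25513654-25575718, plus strand), scored 136 (percentile 95.5) in biosample 1 and 52 (percentile 77.1) in biosample 2. The peak spanned a group of start sites downstream of the most upstream one, which had none in either list. Fgfrl1, a receptor without a kinase domain that can bind FGFs, had 7 promoter peaks in biosample 1 and 2 in biosample 2, with top scores of 140 (percentile 97.2) and 63 (percentile 86.4). Fgfr2 scored 126 (percentile 91.1) and 40 (percentile 62.0), with peak edges 926 and 946 bp from the start site. In biosample 1 a further peak, which spanned a start site, scored 114 (percentile 85.1). A weakly supported Fgfr2 transcript starts at the promoter of Ctbp2 and spans 2961 kb, against 104 kb for the rest of the gene, so that span was left out of the windows described further on, a choice made after seeing the data. Without its start site Fgfr2 was still open in both lists, with the edge of the biosample 2 peak 946 bp from the start site. Fgfr3, which restrains bone growth, had 5 peaks in biosample 1 with a top score of 76 and none in biosample 2, and Fgfr4, the receptor through which Fgf15 acts in liver, had none in either list. The median top percentile of the receptors was 93.3 over 4 genes in biosample 1 and 77.1 over 3 in biosample 2. Both medians lay below those of all open genes, 94.2 and 86.4.

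Most feedback inhibitors ranked high among all peaks of both lists. Dusp6, the phosphatase that inactivates ERK in the cytoplasm (chr10:99263231-99267489, plus strand), scored 145 (percentile 99.0) in biosample 1 and 88 (percentile 97.4) in biosample 2. Spred2 scored 146 (percentile 99.3) and 86 (percentile 96.9), and Spred1, the family member mutated in Legius syndrome in humans, 134 (percentile 94.7) and 77 (percentile 93.9). Spry2 (chr14:105891947-105896819, minus strand) had 5 promoter peaks in each list, more than any other feedback inhibitor in biosample 2, with top scores of 140 (percentile 97.2) and 75 (percentile 93.0). All of these stood above the median of all open genes in their list, although the nearest Spred1 peak of biosample 2 was 549 bp from the start site and was lost with a window of 500 bp.

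Spry4 scored 131 (percentile 93.3) and 65 (percentile 87.7), Spry1 126 (percentile 91.1) and 53 (percentile 78.1), and Dusp4, a nuclear phosphatase of the same kind, 127 (percentile 91.5) and 49 (percentile 73.9). Spred3 had 2 peaks with a top score of 98 (percentile 75.7) in biosample 1 and none in biosample 2. Spry4, Spry1, Dusp4 and Spred3 lay below the median of all open genes in biosample 1, and Spry1 and Dusp4 also did in biosample 2. The median top percentile of the feedback inhibitors was 94.0 over 8 genes in biosample 1 and 93.0 over 7 in biosample 2, close to the 94.2 of all open genes in biosample 1 and above the 86.4 in biosample 2. Spry3 had no peak at its GENCODE start site, but its RefSeq start lies 4517 bp away, and there biosample 1 had 5 peaks with scores of 77 to 116 and biosample 2 had 3 with scores of 28 to 33. By the RefSeq start Spry3 was open in both lists.

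Hgf and Met were both open. Hgf scored 126 (percentile 91.1) in biosample 1 and 37 (percentile 57.3) in biosample 2, and Met (chr6:17463800-17573980, plus strand) 126 and 34 (percentile 52.0). Met had 9 promoter peaks over its start sites in biosample 1 and 4 in biosample 2. Both genes ranked below the median of all open genes in each list, 94.2 in biosample 1 and 86.4 in biosample 2.

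Hotspots gave the same loci a second measure, the width of the open region. The widest hotspot at a Fgf7 start site in biosample 1 measured 12243 bp and was the third widest of the whole list, with 1 of 13849 genes that had a promoter hotspot exceeding it; in biosample 2 it measured 740 bp, against a median of 600 bp over all genes. Spry2 was wide in both lists, at 7339 bp in biosample 1, where 23 genes exceeded it, and 2393 bp in biosample 2, where 75 of 11453 did. Dusp6 measured 5119 bp in biosample 1 and 595 bp in biosample 2, Dusp4 4436 and 787 bp, and Spry4 3749 and 490 bp.

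Over the 8 feedback inhibitors with a promoter hotspot the median width was 3488 bp in biosample 1, against 1617 bp over all genes, and 816 bp in biosample 2, against 600 bp. For the ligands it was 992 bp over 9 genes in biosample 1 and 291 bp over 7 in biosample 2, below all genes in both. For the receptors it was 2255 bp over 4 genes in biosample 1 and 330 bp over 3 in biosample 2, above all genes in the first list and below them in the second. Fgf10 (2937 bp), Fgfr1 (3010 bp), Spred2 (3227 bp) and Spred3 (3113 bp) were, with Fgf20, Fgfr2 and Met, also beyond the upper quartile of all genes, 2247 bp, in biosample 1. The Fgfr2 widths used here and in the receptor medians, 3487 and 778 bp, are those at the Ctbp2 promoter. At its other start sites the widest hotspot of biosample 1 measured 3180 bp. The Fgf20 hotspot cannot be told apart from one of Micu3.

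**Figure D2:**
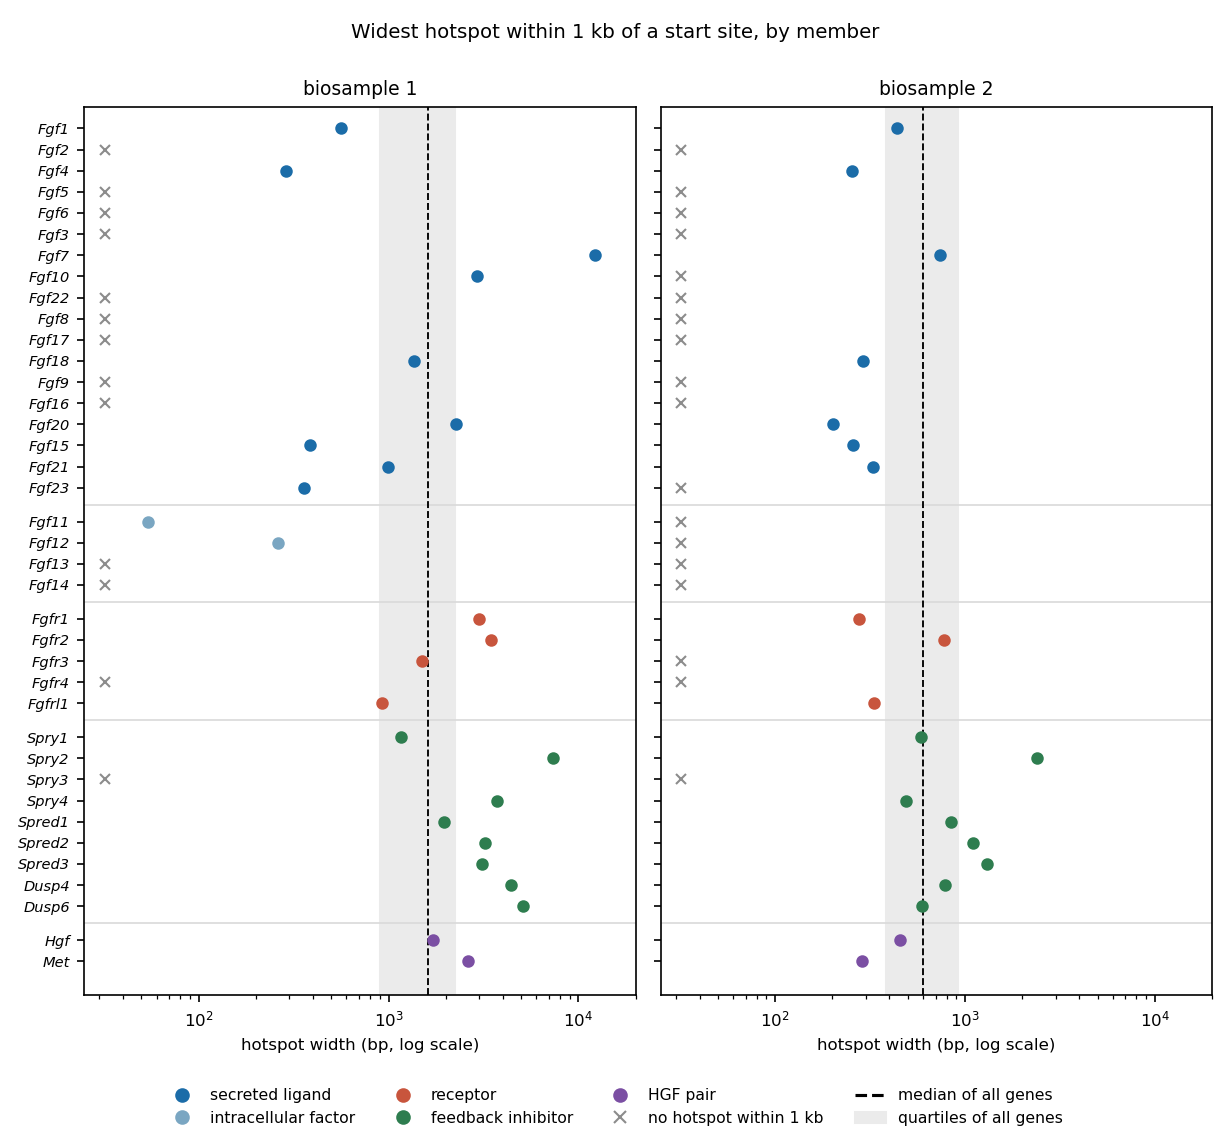
Width (x axis, bp, log scale) of the widest hotspot within 1 kb of a start site for each member, in biosample 1 (left) and biosample 2 (right), with crosses for members without one. The dashed line and grey band give the median and quartiles of all genes with a promoter hotspot. Fgf7 at 12243 bp stands farthest right in biosample 1, and Spry2 at 2393 bp in biosample 2.

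Distal peaks, over 1 kb from any protein-coding start site, were counted in the gene body plus 50 kb on each side and expressed per 100 kb of window. These windows overlap for neighbouring members: Fgf3, Fgf4 and Fgf15 adjoin each other on chromosome 7 and Fgf6 and Fgf23 on chromosome 6, so totals count each peak once. The members held 858 distal peaks in biosample 1 and 243 in biosample 2. The median over the 38 members was 16.0 per 100 kb in biosample 1, against 13.5 for all genes (quartiles 7.58 and 19.5), and 4.07 in biosample 2, against 3.74 (quartiles 1.79 and 5.86). By class the medians in biosample 1 were 15.9 for ligands, 2.98 for intracellular factors, 20.1 for receptors (14.0 with the long Fgfr2 transcript), 17.3 for feedback inhibitors and 24.4 for the HGF pair. In biosample 2 they were 3.58 for ligands, 1.18 for intracellular factors, 6.79 for receptors (5.17 with that transcript), 4.78 for feedback inhibitors and 6.26 for the HGF pair. Among the intracellular factors Fgf11 had 13.2 in biosample 1 and 3.78 in biosample 2. The lower values were those of Fgf12, Fgf13 and Fgf14, with gene bodies of 593, 506 and 699 kb.

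The densest windows in biosample 1 were those of Dusp4 (29.3 per 100 kb), Met (29.0), Fgf7 (26.2) and Spred2 (26.0), each denser than 90.4% of all genes or more. Met, with 61 distal peaks, had the most of any member; among the ligands it was Fgf7 with 41, among the receptors Fgfr2 with 51, among the feedback inhibitors Spred2 with 52 and among the intracellular factors Fgf14 with 28. Low values in biosample 2 were 0.450 per 100 kb at Fgf10, 0.866 at Fgf12, 0.904 at Fgf16 and 0 at Fgf13. Fgf5 had 10 distal peaks in biosample 1 and 0 in biosample 2. A high count near a member does not assign the peaks to it. Of the 24 distal peaks around Fgf22 in biosample 1, 0 were nearest to a Fgf22 start site, and of the 12 around Spred3 likewise 0, while all 33 around Hgf and 54 of 61 around Met were nearest to their own gene.

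**Figure D3:**
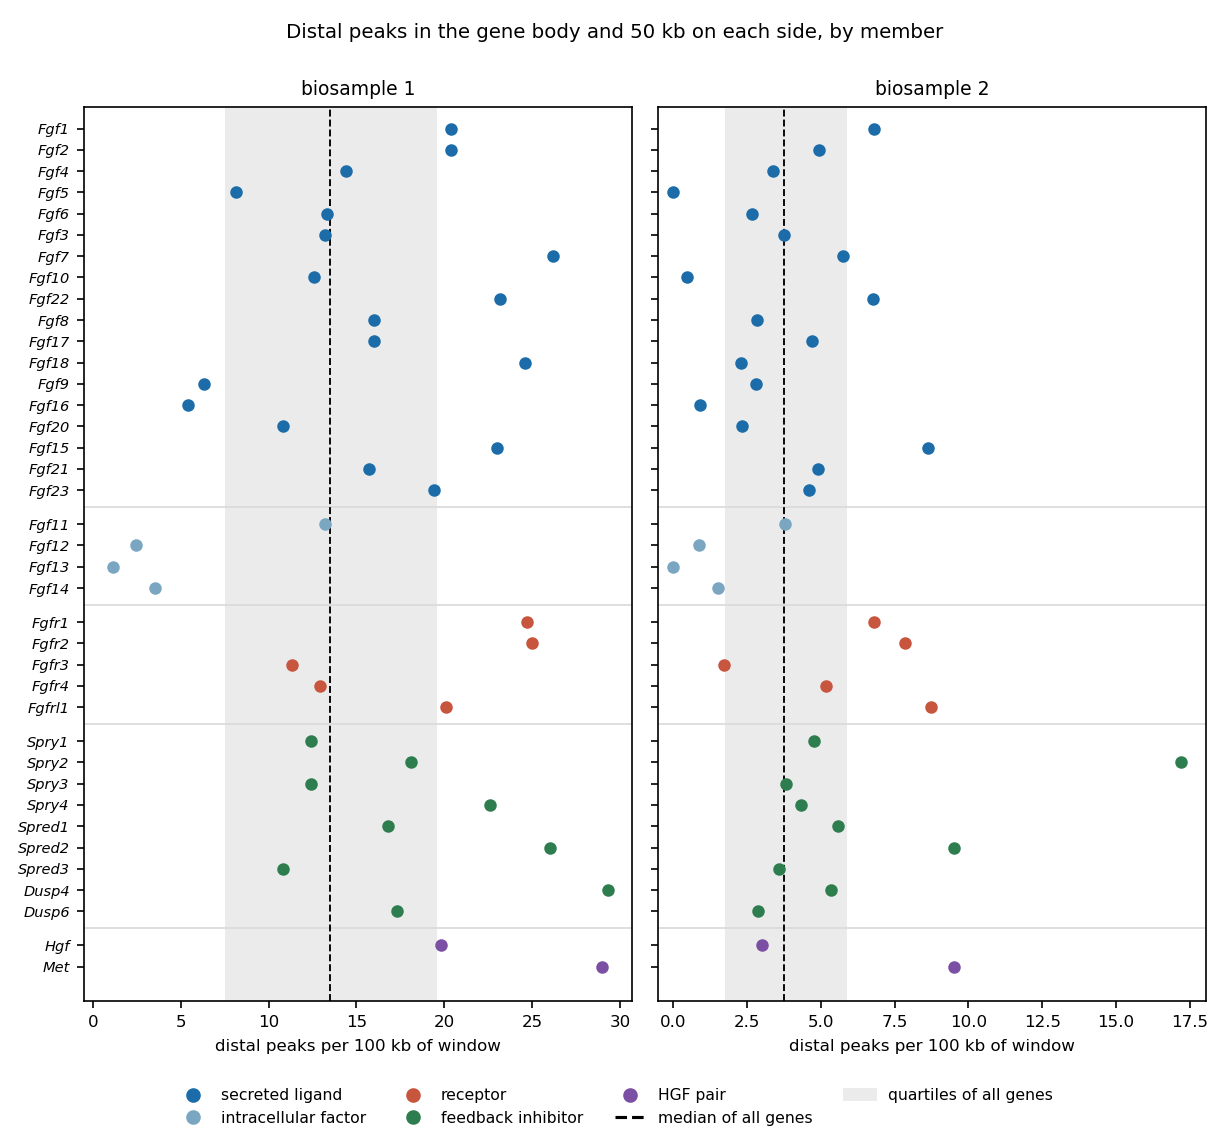
Distal peaks per 100 kb of gene body plus 50 kb flanks (x axis) for each member, in biosample 1 (left) and biosample 2 (right), coloured by class. The dashed line and grey band give the median and quartiles of all protein-coding genes (medians 13.5 and 3.74). Of the intracellular factors Fgf12, Fgf13 and Fgf14 lie left of most other members, while Fgf11 lies near the median of all genes. Spry2 lies alone at 17.2 in biosample 2.

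Spry2 stood apart in biosample 2. Its window held 18 distal peaks there and 19 in biosample 1, although the list of biosample 2 was far shorter, and its 17.2 per 100 kb exceeded 99.5% of all genes, against 18.1 and 70.1% in biosample 1. Within the gene body lay 8 of them in biosample 2 and 5 in biosample 1. Of the 19 peaks in biosample 1, 14 (73.7%) were met by a peak of biosample 2, where an overlap of 1 bp was enough. Over all distal peaks the share was 27.9%. Some of the Spry2 overlaps were narrow, as at chr14:105893216-105893365, met by a window that starts at 105893356. The 18 distal peaks of biosample 2 had a median score percentile of 30.5. Sharing depended on the score, so the shares were also taken within bands of the score percentile of biosample 1. Between percentiles 25 and 50, 2 of 4 Spry2 peaks were met, against 3.23% at the other members and 5.11% of all distal peaks. Between percentiles 50 and 75, 5 of 7 Spry2 peaks were met, against 26.3% and 31.1%. Between percentiles 75 and 90 it was 7 of 8 Spry2 peaks, against 77.6% and 80.7%. The other members thus lay near all distal peaks in each of these bands.

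Over all members 312 of 1040 peaks of biosample 1, promoter and distal, were met by a peak of biosample 2 (30.0%, 95% Wilson interval 27.3 to 32.9), against 30.4% over the whole list. The interval covers counting error only. By class the share was 26.6% for ligands (22.6 to 31.1), 32.6% for intracellular factors, 30.7% for receptors, 35.3% for feedback inhibitors (29.7 to 41.5) and 27.4% for the HGF pair. Without the Spry2 locus the share of the feedback inhibitors was 31.1%, near that of the whole list. With the locus kept and an overlap of 50% of both windows required it was 31.7%. Fgf10 was at the low end, with 1 of 28 distal peaks met.

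**Figure D4:**
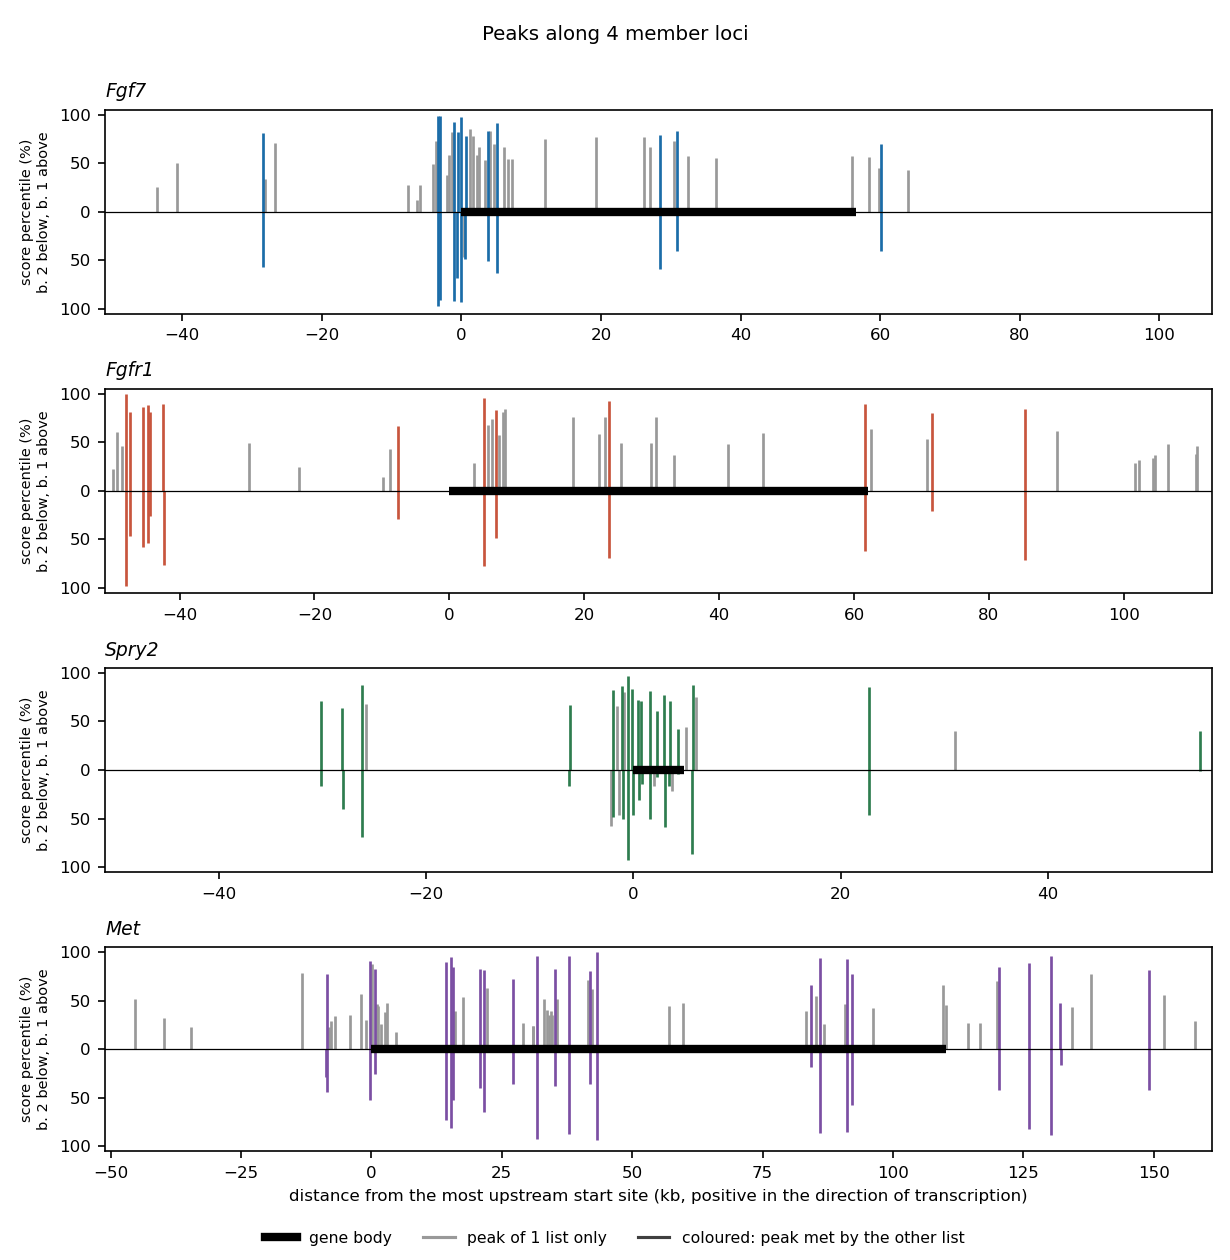
Peaks along the windows of Fgf7, Fgfr1, Spry2 and Met, by distance from the most upstream start site (x axis, kb), with the score percentile of biosample 1 drawn upward and that of biosample 2 downward (y axis, %). Coloured lines are peaks met by the other list, grey lines are peaks of 1 list only, and the black bar is the gene body. Peaks of both lists crowd the Spry2 gene, Fgfr1 has a shared cluster over 40 kb upstream, and those of Met spread along the gene body.

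The strongest distal peaks were looked up by locus. At Fgf7 the top one lay at −3.31 kb from the start site, inside the wide hotspot, and scored 145 (percentile 99.0) in biosample 1 and 86 in biosample 2. At Fgfr1 it lay at −47.9 kb, with a score of 147 (percentile 99.5) and 88 (percentile 97.4), and 6 of the 11 distal peaks of biosample 2 stood in that group, between −47904 and −42344 bp. At Met it lay within the gene, 15.7 kb from the nearest start site, with a score of 148 (percentile 99.7) and 75 (percentile 93.0). At Spry1 it lay 14.0 kb downstream of the start site, with scores of 133 and 69. The strongest in the windows of Fgf6 and Fgf23 was one and the same peak, which scored 142 in the first list and 92 in the second.

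The strongest distal peaks shared by both lists in a ligand, a receptor and a feedback window are printed, with that of Met, which was added after its values were seen, to show how they differ. Those near Fgf21 and Fgfr4 were nearest to other genes: the Fgf21 one overlapped an exon of Bcat2, of which 50 bases outside the untranslated part are given, and the Fgfr4 one, 37.7 kb from the Fgfr4 start site and outside any gene, had Nsd1 as its nearest gene. It held 1 match to SP/KLF, printed here on the opposite strand as CCGCCC. The Spred2 and Met peaks lay in introns of those genes. The Spred2 peak, 24.9 kb from the nearest start site, held 2 matches to the AP-1 motif TGANTCA, and the Met peak held 1.
Fgf21 window, chr7:45589256-45589305: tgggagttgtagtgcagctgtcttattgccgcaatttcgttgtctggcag
Fgfr4 window, chr13:55190256-55190405: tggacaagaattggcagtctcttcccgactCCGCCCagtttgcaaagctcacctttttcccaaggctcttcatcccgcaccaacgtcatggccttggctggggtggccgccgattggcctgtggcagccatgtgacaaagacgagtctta
Spred2 intron, chr11:19979436-19979585: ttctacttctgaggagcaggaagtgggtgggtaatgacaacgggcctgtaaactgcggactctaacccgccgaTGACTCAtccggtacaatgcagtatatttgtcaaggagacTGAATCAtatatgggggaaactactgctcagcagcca
Met intron, chr6:17506916-17507065: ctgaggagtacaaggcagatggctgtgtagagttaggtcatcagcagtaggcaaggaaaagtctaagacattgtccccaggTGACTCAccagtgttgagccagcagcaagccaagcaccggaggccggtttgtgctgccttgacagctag

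AP-1, the factor of the Fos and Jun proteins, is a common feature of open distal sites in fibroblasts. Its motif TGANTCA, searched on both strands, was found in 83 of the 220 shared distal peaks of the 37 members on chromosomes (37.7%) and in 32.4% of all shared distal peaks of the same length. By class the share was 21.6% of 74 for ligands, 48.8% of 41 for receptors, 37.7% of 61 for feedback inhibitors and 66.7% of 24 for the HGF pair. Of the 20 windows of the intracellular factors 8 held it, 6 of them at Fgf14. The highest numbers came from Met, with 12 of 19 peaks, and Fgfr2, with 9 of 13. Other motifs were near the background in these distal peaks: RUNX (TGTGGT) 19.1%, against 19.5% of all, TEAD (CATTCC) 13.2%, against 15.5%, and CTCF 9.09%, against 9.14%. The ETS motif CCGGAAG was in only 4 windows (1.82%), against 0.985% of all. The CRE motif TGACGTCA was in only 3 (1.36%), 2 of them at the HGF pair, against 0.318%. In the 37 shared promoter peaks of the members GGGCGG was found in 24.3%, against 37.9% of all shared promoter peaks, and CCGGAAG in 0, against 9.93%. Among these 37 are the 5 peaks of the Fgfr2 start site at the Ctbp2 promoter. None of the motifs searched contains another of them, and a match is a description of the letters, not of a bound factor.

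The promoters were also compared by their CpG content, which sequence alone sets. CpG-rich here means that the 1000 bp around the most upstream start site hold at least 0.6 times the CpG dinucleotides that their C and G content gives by chance. This held for 19 of the 37 members on chromosomes (51.4%) and for 46.6% of all genes. It held for 7 of 8 feedback inhibitors, all 7 of them open in both lists, with ratios of 0.67 at Spred2 to 1.01 at Spred1, and for 3 of 5 receptors. One of these receptors is Fgfr2 (ratio 0.73), whose most upstream start site is the one at the Ctbp2 promoter. Of the 18 ligands 7 were CpG-rich, of which 3 were open in both lists (Fgf18, Fgf20 and Fgf15) and 3 in neither (Fgf5, Fgf8 and Fgf16). Over the members 63.2% of the CpG-rich promoters were open in both lists and 33.3% of the others, against 80.2% and 27.2% over all genes. Fgf4 (ratio 0.05), Fgf7 (0.38), Fgf21 (0.24), Fgfr1 (0.28), Fgfrl1 (0.32) and Hgf (0.28) were open in both lists without being CpG-rich at that start site.

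The rest of the pathway, from a list of 50 genes that are not members, was open at 39 in both lists. Over all protein-coding genes 51.9% were open in both lists, and over the CpG-rich ones 80.2%. All 20 signal transduction genes were open in both, among them that of the receptor adaptor Frs2, as were the ERK-responsive factors Etv1, Etv4 and Etv5. Of 4 further feedback genes 3 were open in both and Dusp9 in biosample 1 only. Of 17 co-receptors and matrix partners 11 were open in both, and Kl, Klb, Sdc3, Gpc3, Flrt1 and Fgfbp1 in neither. Kl and Klb encode the Klotho proteins that the endocrine FGFs need as co-receptors. Of 6 genes that activate HGF or hold its activation in check, the urokinase gene Plau and that of its receptor, Plaur, were open in both and Hgfac, Spint1, Spint2 and St14 in neither.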

How the data were processed

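Per the labels, the authors made the lists in assembly mm10 from the 2 technical libraries of each biosample pooled. Aligner, caller and versions are not given in the sources used here. Each deposited peak has a score, up to 150, whose definition is not given; it served for mean-rank percentiles within each list. The deposited hotspot lists carry a −log10 q value, capped at 100 by the authors and not used for ranking. Depth was unknown.

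GENCODE M21 start sites of protein-coding transcripts were used for 21911 genes with 54462 start sites. Sequences came from GRCm38.p6, in which 0 of 730507 intervals lay beyond a chromosome end. Sharing meant an overlap of at least 1 bp. No statistical test was possible or made; members are set beside all protein-coding genes. Python 3.11.15 with pandas 2.3.3 and numpy 2.4.6 was used, and the interval code was checked on simulated peaks. The members and gene lists were chosen with earlier results of these data known. All members were accounted for by promoter state, with values for every open member and the member with the most distal peaks per class, and with sequences outside chromosome 18 for the best-ranked shared promoter peak of each class that had one, and for the best-ranked shared distal peak of ligands, receptors, feedback inhibitors and, added later, the HGF pair. Promoter hotspot widths, Fgfr2 without its long transcript and RefSeq start sites were added after seeing the data. Alternatives were other windows, flanks, start sites, score and CpG thresholds.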

Additional observations from a re-analysis of the deposited data

How the results depend on the processing

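Of 126 class values recomputed under an alternative, 112 stayed within 1.5 times the reported value or, for shares, within its counting interval. Some of these could not move. With no member open only in biosample 2, its list alone gives the same counts as both lists. Leaving out the Fgfr2 start at Ctbp2 cannot alter a class without Fgfr2. With the stronger 50% of each list 3 ligands were open in both lists (without Fgf4, Fgf15 and Fgf21), and distal density was 6.69 per 100 kb for ligands, 11.3 for receptors and 10.6 for feedback inhibitors in biosample 1, and 1.81 for ligands, 3.44 for receptors and 1.92 for feedback inhibitors in biosample 2. In the list of biosample 1 alone 10 ligands and 2 intracellular factors were open. A window of 2000 bp and RefSeq start sites each gave 1 open intracellular factor. A CpG ratio of at least 0.75 left 4 ligands and 0 receptors, and the start site with the highest ratio gave 5 receptors.

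By gene, a window of 500 bp lost Fgf4, Fgf21 and Spred1 and one of 2000 bp gained Fgf1, Fgf11 and Spred3; RefSeq start sites gained Fgf11, Spry3 and Spred3 and lost Fgf4, Fgf20 and Fgfr2; the most upstream start site alone lost Fgfr1; hotspots in place of peaks gained Fgf1 and Spred3. Fgfr2 stayed open with the 500 bp window and at the most upstream start site only through its start at Ctbp2. At its other start sites the biosample 2 peak had its edge 946 bp away. With the full Fgfr2 body its window held 427 distal peaks in biosample 1 and 120 in biosample 2, against 51 and 16. No paired analysis was possible because each biosample has 1 pooled list. Unknown depth limits every absence.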
